A study of Mus musculus with 30 samples.

Results

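The genes that set the pace of the G1 phase were followed through the activation of mouse B cells from Irf4+/+ and Irf4-/- mice, Irf4 being a transcription factor. They were the D-type cyclins Ccnd1, Ccnd2 and Ccnd3, their partner kinases Cdk4 and Cdk6, the Cip/Kip inhibitors Cdkn1a (p21) and Cdkn1b (p27), and the INK4 inhibitors Cdkn2c (p18) and Cdkn2d (p19). Every probe set annotated to exactly 1 of these 9 symbols was taken, which gave 25 of the 45037 probe sets that are not controls. Of the 25, 24 were bright enough to be tested, meaning that their intensity was above the table's median on 3 arrays or more. On the scale used throughout, log2 of the intensity plus 16, that median stood at 7.67. The set left untested was 1417419_at of Ccnd1, which exceeded the median on 0 arrays. Each gene was counted by its tested set of highest mean, and where other sets of the gene went differently this is stated.

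The cells were resting mature B cells from spleen, all of the C57BL/6, B1-8i background, in which a rearranged heavy chain gene is placed in the immunoglobulin locus. They came from Irf4+/+ mice (wild type, WT) or from Irf4-/- mice that carry an Irf4 gene switched on by doxycycline, called KO here at every dose. Expression was measured on Affymetrix 430 2.0 arrays in 10 groups of 3 arrays, each from an individual mouse. WT cells were taken at days 0, 1 and 3, and KO cells at day 0 and at days 1 and 3 with no doxycycline (zero DOX), 16 ng/mL (low DOX) or 100 ng/mL (high DOX). Day 0 cells were unstimulated, and the cultures of days 1 and 3 received CD40 ligand and the interleukins IL-2, IL-4, IL-5. The labels name no doxycycline for WT cells, so the groups hold no control for the drug alone. The age of the mice and the promoter behind the inducible gene are not given in the sources used here.

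D cyclins are made when mitogens reach a resting cell, bind Cdk4 or Cdk6, and with them phosphorylate the retinoblastoma protein, which frees E2F factors to switch on the genes of S phase. INK4 inhibitors bind Cdk4 and Cdk6 directly and keep the cyclins off, whereas Cip/Kip inhibitors bind the assembled complexes, those of Cdk2 included. Ccnd2 and Ccnd3 are the main D cyclins of B lymphocytes, p27 is a hallmark of quiescence, and p18 is known for its part in the cell cycle exit of plasma cells. Irf4 is needed for plasma cells to form, and its dose steers activated B cells toward them.

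Several arrays call for care before the results. The doxycycline-responsive Irf4 probe set, 1421174_at, read 10.77 on the day 1 array labelled KO zero DOX replicate 2, against 7.84 and 7.80 on its partners. It read 7.69 on the array labelled KO low DOX replicate 2, against 11.17 and 10.89 on its partners, so both went against their labels. This set stood at 7.82 ± 0.15 (SD, n = 3) in WT at day 1, near the table's median. The other Irf4 set, 1421173_at, was bright in both genotypes, at 11.72 ± 0.05 in WT and 12.05 ± 0.13 with zero DOX at day 1, and at 10.82 ± 0.05 and 11.10 ± 0.29 at day 3 (SD, n = 3). Neither set thus showed the loss of Irf4 in KO cells, the genotypes are as labelled, and which part of the transcript each set reads was not analysed here. Xist and Y-linked sets showed 2 male arrays and 1 female array in each KO group, with replicate 3 the female one, and 3 female arrays in each WT group. At KO day 0 the replicates correlated least with each other (0.978 to 0.990 across probe sets), and replicate 3 there had the lowest array weight, 0.28. The proliferation markers Mki67, Top2a and Birc5 were all higher in KO than in WT at day 0, with summed levels of 11.58 to 12.56 against 10.80 to 11.81, where WT replicate 3 was the highest of its group. Every change measured from day 0 starts from these arrays, and the part of that difference in the results was not tested. Results that rest on these arrays or on sex are given with the value without them where the call changed. Summed B cell markers (Cd22, Cd79a, Cd79b, Ms4a1 and Pax5, 5 of the 6 listed) lay between 14.96 and 15.91 on all 30 arrays, as log2 of the summed intensity plus 16. In bulk RNA of this kind, fewer cells of a type and less RNA per cell cannot be told apart.

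The cyclins are described first. Ccnd2, the D cyclin that B cell mitogens induce, showed the largest swing of the 9 genes. In WT cells its set 1455956_x_at read 10.95, 10.89 and 10.98 at day 0, then 13.70, 13.68 and 13.68 at day 1, then 11.63, 11.39 and 11.46 at day 3. It thus rose sharply by day 1 and had given back most of the rise by day 3, with no overlap between the days. The day 1 rise was 2.75 on the log2 scale (6.73-fold, SE 0.08, limma adjusted p = 3.85e-19). The day 3 level was lower than that of day 1 by 4.58-fold (-2.20, adjusted p = 9.49e-16) and still above day 0 (0.56, adjusted p = 1.4e-06).

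In KO cells, Ccnd2 rose sharply too but stood higher than in WT at day 3. KO cells read 10.76, 10.86 and 10.66 at day 0 and, with zero DOX, 13.42, 13.48 and 13.59 at day 1, then 12.59, 12.31 and 12.28 at day 3. The day 1 rise in KO cells was 2.74 (SE 0.08, adjusted p = 4.28e-19), and the difference between the genotypes in that rise was -0.01 (95% interval -0.25 to 0.22, adjusted p = 0.931). At day 3 every KO zero DOX array lay above every WT array, by 0.90 (1.86-fold, adjusted p = 8.28e-09). The change from day 0 to day 3 was larger in KO than in WT by 1.07 (SE 0.11, adjusted p = 7.1e-07). At days 0 and 1 the genotypes differed by -0.18 (adjusted p = 0.0967) and -0.19 (adjusted p = 0.0519), both short of the threshold. At day 1, 5 of the 7 Ccnd2 sets did pass it, all lower in KO, as 17.3% of all probe sets were.

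With doxycycline, Ccnd2 moved away from WT rather than toward it. At day 3 the low DOX arrays read 12.99, 12.92 and 12.79, and the high DOX arrays 13.24, 13.13 and 13.03. The 3 doses stood in order with no overlap, and all 9 KO arrays lay above the WT arrays. Low DOX exceeded zero DOX by 0.51 (adjusted p = 3.01e-05) and high DOX exceeded it by 0.74 (1.67-fold, adjusted p = 4.76e-08), whereas the step from low to high DOX was 0.23 (95% interval 0.07 to 0.40, adjusted p = 0.0673). Against WT at day 3, high DOX was higher by 1.64 (3.12-fold, adjusted p = 1.19e-13) and low DOX by 1.41 (2.66-fold, adjusted p = 4.74e-12). These comparisons share the WT or the zero DOX arrays and are not independent of each other. At day 1 the high and zero DOX groups overlapped (0.11, adjusted p = 0.792), and the effect of high DOX was larger at day 3 than at day 1 by 0.63 (adjusted p = 0.000195). All 7 Ccnd2 sets gave the same calls as 1455956_x_at in the comparisons between days and in the day 3 comparisons of each KO group with WT and of each dose with zero DOX. They also did so for the genotype's effect on the day 3 change and for the late effect of high DOX, whereas 1416123_at alone called the genotype's effect on the day 1 change (-0.40, adjusted p = 0.047). Their correlation with 1455956_x_at over the 30 arrays was 0.9958 or higher.

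Ccnd1, the D cyclin of many adherent cell types, ran the other way and near the limit of the arrays. Its set 1417420_at read 8.39, 8.46 and 8.57 in resting WT cells, 7.06, 7.03 and 6.99 at day 1, and 7.15, 7.11 and 7.17 at day 3. The stimulated WT arrays were therefore all below the table's median, and below every resting array. The fall was 1.45 by day 1 (SE 0.13, adjusted p = 2.1e-10) and stood at -1.33 by day 3 (adjusted p = 1.67e-09). Resting KO cells read 8.80, 8.94 and 8.40, and zero DOX cells 7.87, 8.28 and 7.76 at day 1 and 7.81, 8.18 and 7.91 at day 3. The fall in KO cells was smaller, -0.74 at day 1 (adjusted p = 1.14e-05) and -0.75 at day 3 (adjusted p = 1.39e-05). The genotypes differed in that fall by 0.71 at day 1 (adjusted p = 0.00345) and by 0.58 at day 3 (adjusted p = 0.0201), the latter missing the threshold without KO day 0 replicate 3 (0.43, adjusted p = 0.0582) or KO zero DOX day 3 replicate 2 (0.47, adjusted p = 0.0701). Accordingly Ccnd1 was higher in KO zero DOX than in WT at day 1 (0.95, adjusted p = 4.02e-06) and at day 3 (0.82, adjusted p = 1.92e-05), with no overlap of arrays on either day.

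Doxycycline lowered Ccnd1 at day 3. The low DOX arrays read 7.46, 7.69 and 7.58, and the high DOX arrays 7.25, 7.26 and 7.19, so that the doses did not overlap and high DOX came close to the WT arrays. High DOX was 0.73 below zero DOX in log2 (-0.73, adjusted p = 3.9e-05) and differed from WT by 0.09 (95% interval -0.17 to 0.35, adjusted p = 0.625). Low DOX was lower than zero DOX (-0.39, adjusted p = 0.0198), a call lost without KO zero DOX day 3 replicate 2 (-0.28, adjusted p = 0.131) or KO low DOX day 3 replicate 1 (-0.33, adjusted p = 0.0979). High against low DOX was -0.34 with adjusted p = 0.091, and adjusted p = 0.0197 when the replicate number was a block in the fit of the KO arrays. Low DOX remained above WT (0.43, adjusted p = 0.0114), which fell short with sex as a term (0.32, adjusted p = 0.0505) or without KO low DOX day 3 replicate 2 (0.37, adjusted p = 0.0599). The dimmer Ccnd1 set 1448698_at gave the same calls in 18 of the 20 comparisons, the exceptions being low DOX against WT (0.20, adjusted p = 0.0792) and the difference in the high DOX effect between day 3 and day 1 (-0.32, adjusted p = 0.0683, against -0.53, adjusted p = 0.034, on 1417420_at).

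**Figure D1:**
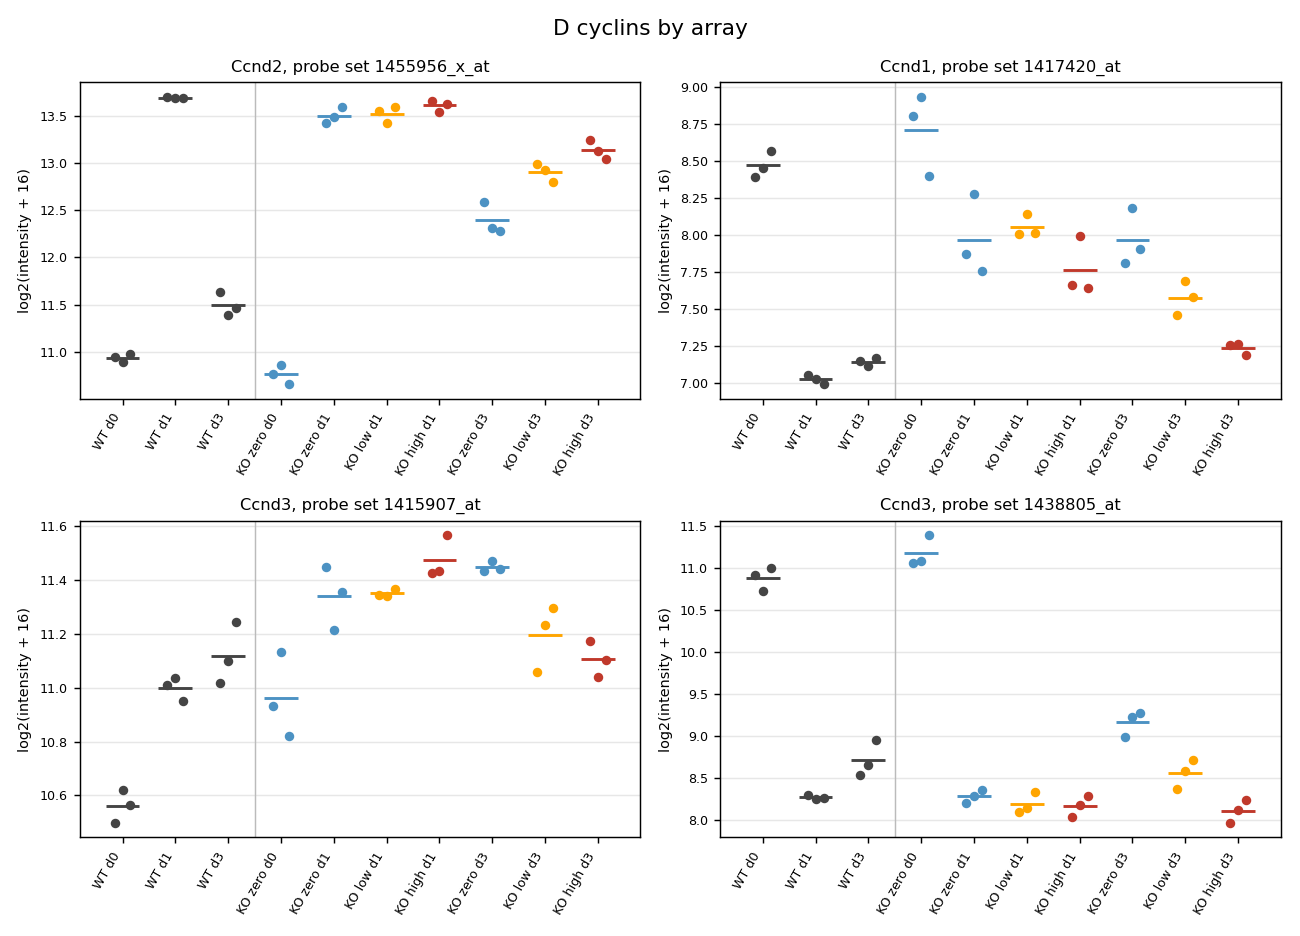
Levels of the D cyclins on each array, as log2 of the intensity plus 16 (vertical axes, scaled separately), in the 10 groups of 3 arrays (horizontal axes). Points are arrays and bars are group means. Ccnd2 fell from day 1 to day 3 in WT to between 11.39 and 11.63 but stood between 12.28 and 13.24 on the KO arrays of day 3, and the panels for Ccnd3 show sets that moved in opposite directions after stimulation.

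Ccnd3, the D cyclin on which germinal centre B cells depend, was read by sets that disagreed. The brightest, 1415907_at, read 10.50, 10.62 and 10.56 in resting WT cells, 11.01, 11.03 and 10.95 at day 1 and 11.02, 11.10 and 11.24 at day 3. That is a small rise without overlap, of 0.44 by day 1 (1.35-fold, SE 0.08, adjusted p = 1.15e-05) and 0.56 by day 3 (adjusted p = 5.12e-07). The set 1438805_at read 10.92, 10.73 and 11.00 in the same resting cells and 8.30, 8.26 and 8.27 at day 1. It therefore fell by 2.61 at day 1 (SE 0.11, adjusted p = 4.41e-16) and fell by 2.16 at day 3 (adjusted p = 3.1e-14). In KO cells the pair diverged likewise, with 1415907_at up by 0.38 at day 1 (adjusted p = 8.68e-05) and 1438805_at down (-2.89, adjusted p = 7.62e-17). Over the 30 arrays their correlation was -0.64, a description only. The dim set 1444323_at fell at day 1 in WT (-0.38, adjusted p = 0.00613) and was at 0.04 at day 3 (adjusted p = 0.776). Which transcripts each set reads was not analysed here, so the direction of Ccnd3 on stimulation cannot be stated for the gene as a whole.

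What the main Ccnd3 sets shared was a lower level with doxycycline at day 3. On 1415907_at the KO zero DOX arrays read 11.43, 11.47 and 11.44, the low DOX arrays 11.06, 11.23 and 11.30, and the high DOX arrays 11.17, 11.04 and 11.10. The zero DOX arrays were the highest and those of low and high DOX overlapped each other and WT. KO zero DOX exceeded WT by 0.40 at day 0 (adjusted p = 0.000296), 0.34 at day 1 (adjusted p = 0.000838) and 0.33 at day 3 (adjusted p = 0.00143). High DOX was lower than zero DOX (-0.34, adjusted p = 0.000603), as was low DOX (-0.25, adjusted p = 0.0125), the latter not without KO low DOX day 3 replicate 1 (-0.18, adjusted p = 0.105). On 1438805_at the same arrays read 8.99, 9.23 and 9.28 with zero DOX, 8.37, 8.59 and 8.72 with low and 7.97, 8.13 and 8.24 with high DOX. Here the doses stood in order, with high against zero DOX at -1.05 (adjusted p = 4.74e-08) and high against low DOX at -0.45 (adjusted p = 0.0105). That step was lost without KO low DOX day 3 replicate 3 (-0.37, adjusted p = 0.0801) or KO high DOX day 3 replicate 1 (-0.38, adjusted p = 0.0852). At day 3 this set was higher in KO zero DOX than in WT (0.45, adjusted p = 0.00327) and lower in high DOX than in WT (-0.60, adjusted p = 0.000143). The dim set read -0.26 for high against zero DOX (adjusted p = 0.081). The effect of high DOX differed between day 3 and day 1 on both brighter sets, by -0.48 on 1415907_at (adjusted p = 0.00184) and by -0.94 on 1438805_at (adjusted p = 0.000118).

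Both kinases rose at day 1 in WT and in KO cells on their brightest sets. Promoter sequence was looked up for all 9 genes, and 7 had an entry in the RefSeq-derived table used here (10 windows of the 250 bases before a start site, build GRCm38.p6). The windows of Cdk4 and Cdk6 are shown because they carry the palindrome CACGTG, the E-box that Myc and related factors bind, in capitals. Cdk4 holds it 4 times, beginning at positions -172, -118, -98 and -11 from the start, and Cdk6 holds it once, at -220.

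Cdk4, chr10:127063285-127063534, plus strand: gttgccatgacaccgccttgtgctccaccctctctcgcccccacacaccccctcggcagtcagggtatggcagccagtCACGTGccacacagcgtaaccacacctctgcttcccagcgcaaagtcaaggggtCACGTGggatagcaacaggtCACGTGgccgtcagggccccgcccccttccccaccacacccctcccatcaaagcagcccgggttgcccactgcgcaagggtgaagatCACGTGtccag

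Cdk6, chr5:3343643-3343892, plus strand: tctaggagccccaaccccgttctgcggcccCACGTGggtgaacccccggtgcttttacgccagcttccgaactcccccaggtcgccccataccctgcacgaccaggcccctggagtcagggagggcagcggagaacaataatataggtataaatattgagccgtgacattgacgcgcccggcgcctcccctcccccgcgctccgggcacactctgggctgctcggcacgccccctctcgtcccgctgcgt

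CACGTG, which reads the same on both strands, was found in 6.02% of all 32851 windows of this length. The other letters searched on both strands were TTTCCCGC, TTTCGCGC, TTTGCCGC and TTTGGCGC (E2F, in 1.86% of windows), TGTTTAC (FoxO, 3.17%), GAAA followed after 2 bases of any kind by GAAA (the interferon response element that Irf factors bind, 2.98%) and GGAA followed likewise by GAAA (the composite site of ETS factors with Irf4, 2.30%), the last 2 of which can overlap. Among the windows of the 7 genes, TGTTTAC occurred once, in 1 of the 2 Ccnd3 windows, and the E2F, interferon response and composite letters did not occur. A match is a description of the sequence, and no match says only that these letters are not in the window.

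Cdk4, the more abundant partner of D cyclins in most tissues, rose in every culture. On 1422441_x_at resting WT cells read 10.99, 11.12 and 11.07, day 1 cells 12.47, 12.39 and 12.35, and day 3 cells 12.03, 12.01 and 12.02. The days did not overlap, with a rise of 1.34 by day 1 (2.53-fold, SE 0.05, adjusted p = 5.54e-17) and of 0.96 by day 3 (adjusted p = 5.81e-14). KO zero DOX cells read 11.26, 11.21 and 11.21 at day 0, 12.35, 12.35 and 12.41 at day 1 and 11.92, 11.82 and 11.97 at day 3. At day 0 this set was called higher in KO than in WT, with means of 11.23 and 11.06 and no overlap of arrays. How many day 0 calls held without single arrays is counted below. The rise in KO cells was smaller than in WT by 0.28 at day 3 (difference -0.28, adjusted p = 0.00698), and all 3 Cdk4 sets called that difference. The genotype's effects on the rise, at day 3 and at day 1, take in the day 0 difference. On 1422441_x_at the day 1 means were 12.37 with zero DOX and 12.40 in WT. At day 1 the corresponding difference of -0.20 (adjusted p = 0.0345) was called on this set alone. It was lost without the pair of arrays whose Irf4 set went against the label (-0.18, adjusted p = 0.0638) and without replicate 1 of any of the 4 groups or replicate 2 of KO zero DOX day 1 (-0.19 to -0.16, adjusted p 0.0687 to 0.0959). At day 3 KO zero DOX stood at -0.12 against WT (adjusted p = 0.0827), and 2 of the 3 sets passed the threshold, both lower in KO. Low DOX was higher than zero DOX at day 3 (0.17, adjusted p = 0.0139), which was lost without KO zero DOX day 3 replicate 2 (0.13, adjusted p = 0.0976) or KO low DOX day 3 replicate 3 (0.15, adjusted p = 0.0578). High against zero DOX was 0.07 (95% interval -0.03 to 0.18, adjusted p = 0.259).

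Cdk6, the partner that prevails in blood cells, depended on the genotype at day 1. On 1435338_at WT cells read 10.70, 10.66 and 10.53 at day 0, 11.79, 11.77 and 11.79 at day 1 and 10.57, 10.50 and 10.39 at day 3. The WT day 1 arrays were the 3 highest of all 30. In KO zero DOX cells the set read 10.81, 10.77 and 10.86 at day 0, 10.97, 11.07 and 11.15 at day 1 and 10.36, 10.24 and 10.16 at day 3. The day 1 rise was 1.15 in WT (2.22-fold, SE 0.08, adjusted p = 1.47e-12) and 0.25 in KO (1.19-fold, adjusted p = 0.00501), and the genotypes differed in it by -0.90 (SE 0.11, adjusted p = 3.47e-06). All 3 Cdk6 sets called this difference, from -1.10 to -0.69. The level at day 1 was lower in KO by 1.64-fold (-0.72, adjusted p = 2.26e-07).

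High DOX raised Cdk6 part of the way at day 1, where the arrays read 11.47, 11.29 and 11.53, above the zero DOX arrays and below the WT arrays. The difference from zero DOX was 0.36 (1.29-fold, adjusted p = 0.0142). It missed the threshold without KO zero DOX day 1 replicate 1 (0.31, adjusted p = 0.121), KO high DOX day 1 replicate 1 (0.34, adjusted p = 0.104) or KO high DOX day 1 replicate 3 (0.31, adjusted p = 0.0967). The low DOX arrays read 11.19, 10.91 and 11.23, and the array at 10.91 is the one whose Irf4 set read 7.69. At day 3 Cdk6 was lower in KO zero DOX than in WT (-0.23, adjusted p = 0.0204). That call fell short with sex as a term (-0.20, adjusted p = 0.0536) or when any of 4 arrays was left out: WT replicate 1 (-0.19, adjusted p = 0.102), WT replicate 2 (-0.22, adjusted p = 0.0608), KO replicate 2 (-0.23, adjusted p = 0.0574) or KO replicate 3 (-0.19, adjusted p = 0.0945). Both low DOX (10.59, 10.54 and 10.55) and high DOX (10.65, 10.52 and 10.53) lay above zero DOX, by 0.30 (adjusted p = 0.00371) and 0.31 (adjusted p = 0.00167), and overlapped WT. The set 1460291_at called none of the doses against zero DOX, on either day (0.14 for high DOX at day 1, adjusted p = 0.85, and 0.13 at day 3, adjusted p = 0.372), and only 1435338_at called the genotypes apart at day 3. From day 1 to day 3 Cdk6 fell in every series tested, by 1.30 in WT (adjusted p = 1.09e-12), by 0.81 with zero DOX (adjusted p = 5.13e-09) and by 0.86 with high DOX (adjusted p = 1.67e-09).

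**Figure D2:**
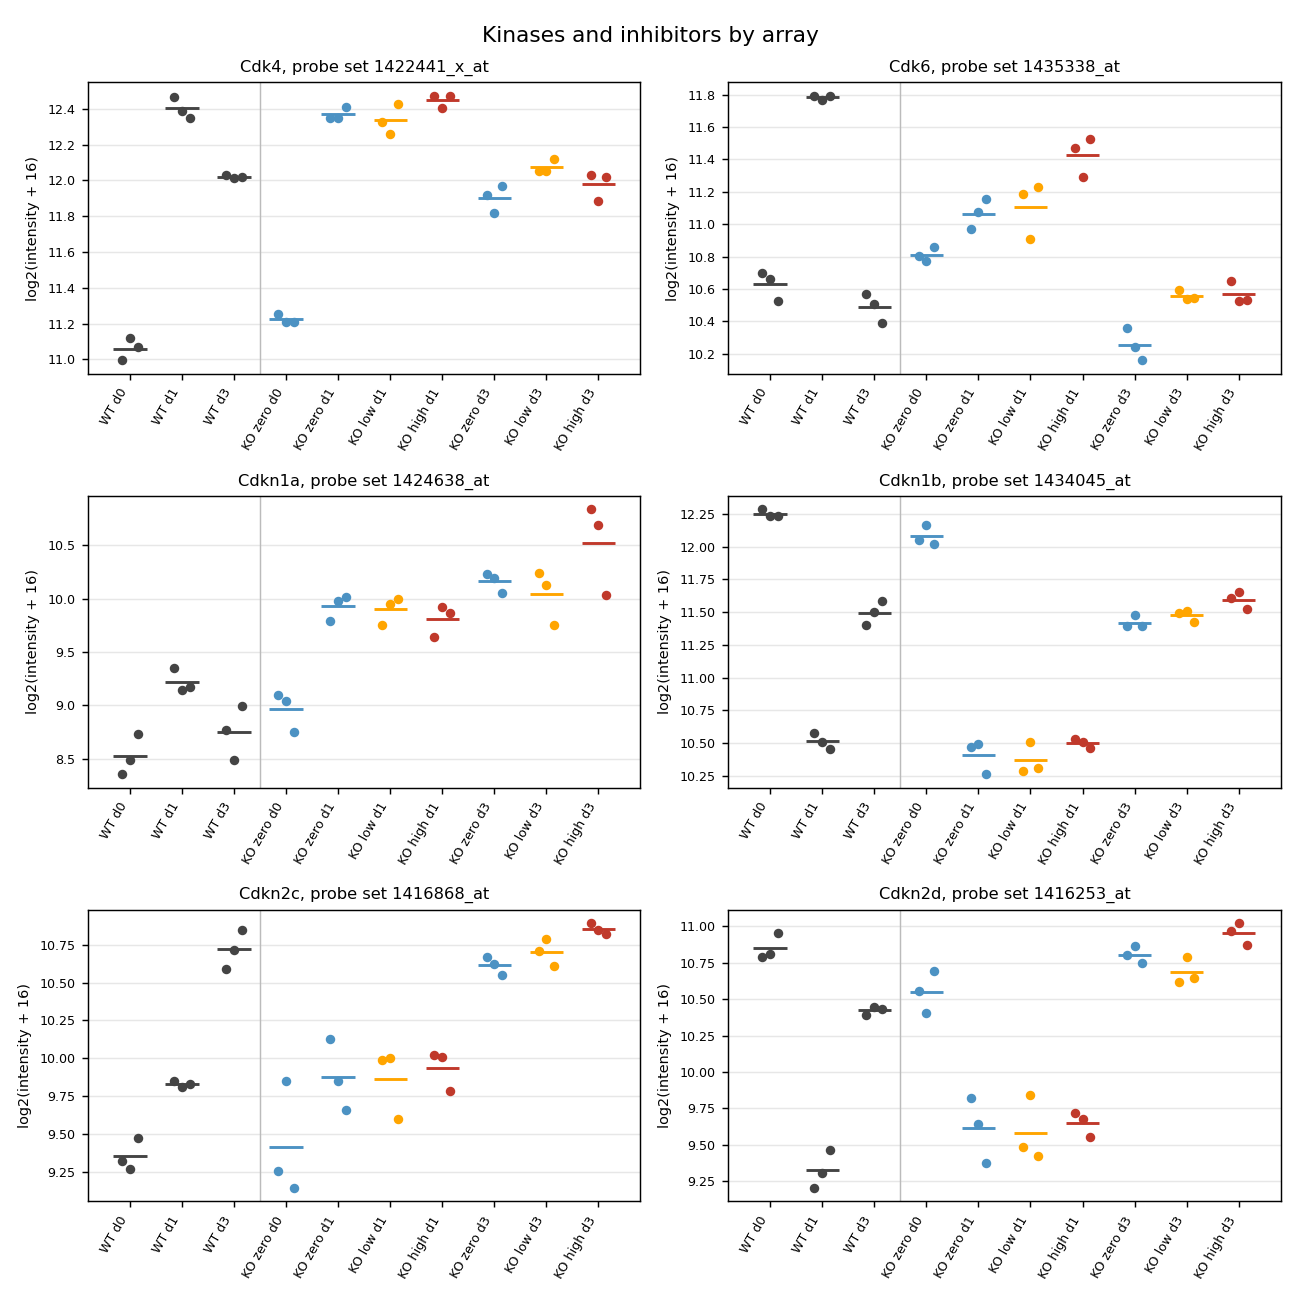
Levels of both kinases and of the 4 inhibitors on each array, as log2 of the intensity plus 16 (vertical axes, scaled separately), in the 10 groups of 3 arrays (horizontal axes). Points are arrays and bars are group means. Cdk6 peaked between 11.77 and 11.79 in WT at day 1 against 10.97 to 11.15 with zero DOX, and Cdkn1a lay between 9.75 and 10.84 on the KO arrays of day 3 against 8.49 to 8.99 in WT.

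Among the inhibitors, Cdkn1a separated the genotypes most. It encodes p21, which p53 and other stress inputs induce. The window before the first of its 2 listed start sites is shown because it holds the core pair of a p53 element, CATG, 6 bases and CATG, in capitals, beginning at position -48 from the start. This pattern, the same on both strands, was added to the search after the window had been seen, and occurred in 0.49% of the 32851 windows.

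Cdkn1a, chr17:29090729-29090978, plus strand: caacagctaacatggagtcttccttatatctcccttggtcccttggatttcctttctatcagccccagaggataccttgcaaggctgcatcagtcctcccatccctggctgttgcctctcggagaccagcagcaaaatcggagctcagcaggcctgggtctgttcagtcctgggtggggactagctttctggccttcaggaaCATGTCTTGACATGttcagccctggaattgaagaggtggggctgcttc

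On 1424638_at WT cells read 8.35, 8.49 and 8.73 at day 0, 9.35, 9.14 and 9.18 at day 1 and 8.77, 8.49 and 8.99 at day 3. KO cells read 9.10, 9.04 and 8.75 at day 0 and, with zero DOX, 9.79, 9.98 and 10.01 at day 1 and 10.23, 10.20 and 10.06 at day 3. In WT the gene rose and came back, and in KO it rose and stayed. The WT rise at day 1 was 0.70 (1.62-fold, SE 0.16, adjusted p = 0.000476). At day 3 the arrays overlapped those of day 0, and the difference was not called (0.23, adjusted p = 0.235). The fall from day 1 to day 3 in WT (-0.47, adjusted p = 0.0148) was lost without WT day 1 replicate 1 (-0.41, adjusted p = 0.0613) or WT day 3 replicate 2 (-0.34, adjusted p = 0.0985), and the second set, 1421679_a_at, called it at -0.78 (adjusted p = 0.000153). In KO the rise was 0.97 at day 1 (adjusted p = 1.19e-05) and 1.20 at day 3 (adjusted p = 7.12e-07). The change to day 3 was larger in KO by 0.97 (SE 0.23, adjusted p = 0.00365), whereas that to day 1 differed by 0.27 (95% interval -0.21 to 0.75, adjusted p = 0.364).

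KO cells thus held more Cdkn1a than WT on every day. The difference was 0.44 at day 0 (adjusted p = 0.0467), 0.71 at day 1 (1.63-fold, adjusted p = 0.00133) and 1.41 at day 3 (2.66-fold, adjusted p = 4.91e-07). The day 0 call was lost with sex as a term (0.31, adjusted p = 0.165) and without WT day 0 replicate 1 or 2 or KO day 0 replicate 1 or 2, where adjusted p lay between 0.113 and 0.168. Doxycycline did not bring the gene down. At day 3 low DOX arrays read 10.24, 10.12 and 9.75 and high DOX arrays 10.84, 10.69 and 10.04, all above the WT arrays, by 1.29 (2.45-fold, adjusted p = 2.74e-06) and 1.77 (3.42-fold, adjusted p = 1.11e-08). High DOX replicates 1 and 2 were the highest arrays of the series, and replicate 3 lay just below those of zero DOX. High against zero DOX was 0.36 (95% interval 0.02 to 0.70, adjusted p = 0.0775), and without that replicate 3 it was 0.60 (adjusted p = 0.00201). High against low DOX was 0.48 (adjusted p = 0.0634), and adjusted p = 0.0445 with the replicate block in the fit of the KO arrays. The second set gave the same call in each of the 20 comparisons, with a correlation of 0.98 over the 30 arrays.

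Cdkn1b, which encodes p27, fell and partly recovered in both genotypes. On 1434045_at WT cells read 12.28, 12.23 and 12.24 at day 0, 10.58, 10.51 and 10.46 at day 1 and 11.40, 11.50 and 11.59 at day 3. KO cells read 12.05, 12.17 and 12.02 at day 0, 10.47, 10.49 and 10.26 at day 1 and 11.39, 11.48 and 11.39 at day 3 with zero DOX. Both thus fell at day 1 and recovered in part, without overlap between days. The fall at day 1 was 1.74 in WT (3.33-fold, SE 0.07, adjusted p = 3.11e-17) and -1.67 in KO (3.18-fold, adjusted p = 7.01e-17), a difference of 0.07 (95% interval -0.12 to 0.26, adjusted p = 0.582). The recovery from day 1 to day 3 was 0.98 in WT (adjusted p = 6.99e-12), 1.01 with zero DOX (adjusted p = 1.13e-11) and 1.09 with high DOX (adjusted p = 2.06e-12). Small calls at KO day 0 against WT (-0.17, adjusted p = 0.0466) and for high against zero DOX at day 3 (0.17, adjusted p = 0.0319) were lost when most single arrays of the groups compared were left out. The first was lost without any of them but KO day 0 replicate 2 (-0.18 to -0.14, adjusted p 0.0744 to 0.136), and the second without any but KO zero DOX day 3 replicate 2 and KO high DOX day 3 replicate 3 (0.15 to 0.17, adjusted p 0.0787 to 0.121). The dim set 1419497_at, which fell from between 8.04 and 8.11 to between 7.10 and 7.16 in WT, fell less in KO and was higher there at day 1 (0.36, adjusted p = 0.000662) and day 3 (0.26, adjusted p = 0.0094), differences that the main set did not show (-0.11, adjusted p = 0.187, and -0.07, adjusted p = 0.397).

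Cdkn2c, which encodes p18, rose through the culture in every series tested. On 1416868_at WT cells read 9.32, 9.27 and 9.47 at day 0, 9.85, 9.81 and 9.83 at day 1 and 10.59, 10.72 and 10.85 at day 3. KO cells read 9.25, 9.85 and 9.14 at day 0, where replicate 2 stood apart, 10.12, 9.85 and 9.66 at day 1 and 10.67, 10.62 and 10.55 at day 3 with zero DOX. Day 3 lay above day 0 by 1.37 in WT (2.58-fold, SE 0.14, adjusted p = 4.39e-09) and 1.20 in KO (2.30-fold, adjusted p = 4.05e-08). KO and WT differed by 0.06 at day 0 (95% interval -0.22 to 0.35), 0.05 at day 1 (-0.24 to 0.33) and -0.10 at day 3 (-0.39 to 0.18), with adjusted p of 0.767, 0.801 and 0.594. High DOX arrays at day 3 read 10.89, 10.85 and 10.82, all above those of zero DOX, by 0.24 (95% interval -0.04 to 0.52, adjusted p = 0.164). No comparison of genotypes or doses was therefore called for this gene.

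Cdkn2d, which encodes p19 of the INK4 family, fell at day 1 and rose again by day 3. On 1416253_at WT cells read 10.79, 10.81 and 10.96 at day 0, 9.20, 9.31 and 9.46 at day 1 and 10.39, 10.45 and 10.43 at day 3. KO cells read 10.55, 10.40 and 10.69 at day 0, 9.82, 9.64 and 9.37 at day 1 and 10.80, 10.87 and 10.74 at day 3 with zero DOX. WT thus ended below its resting level and KO above it. The WT fall was 1.53 at day 1 (2.89-fold, SE 0.10, adjusted p = 2.22e-12) and -0.43 remained at day 3 (adjusted p = 0.000845). In KO the day 1 fall was smaller, -0.94 (adjusted p = 1.74e-08), and day 3 exceeded day 0 by 0.26 (adjusted p = 0.0351), a call lost without any of KO day 0 replicates 1 and 2 and KO zero DOX day 3 replicates 1 and 2 (0.18 to 0.26, adjusted p 0.0646 to 0.172). The genotypes differed in these changes by 0.59 at day 1 (adjusted p = 0.00299) and 0.69 at day 3 (adjusted p = 0.00156).

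In level, Cdkn2d was lower in KO at day 0 (-0.31, adjusted p = 0.029) and higher at day 1 (0.29, adjusted p = 0.0263) and day 3 (0.38, adjusted p = 0.00592). The day 0 call was lost without WT day 0 replicate 2 or 3 or KO day 0 replicate 1 or 2 (-0.33 to -0.23, adjusted p 0.0513 to 0.148). The day 1 call was lost with sex as a term (0.21, adjusted p = 0.0884), with arrays centred on their medians (0.15, adjusted p = 0.282) and without WT day 1 replicate 1 or 2 or KO zero DOX day 1 replicate 1 or 2 (0.19 to 0.28, adjusted p 0.0669 to 0.184). The array KO zero DOX replicate 2 is among those whose Irf4 set went against the label. High DOX at day 3 read 10.97, 11.02 and 10.87 and lay above WT by 0.53 (1.45-fold, adjusted p = 0.000244), and its difference from zero DOX was 0.15 (95% interval -0.07 to 0.36, adjusted p = 0.26).

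Counted over genes, calls among the 9 are set beside the share called over all genes tested. In WT 9 of 9 changed from day 0 to day 1, 6 up and 3 down, while 81.3% of the 12183 genes tested were called, 33.8% up and 47.5% down. In KO zero DOX cells the same 6 rose and the same 3 (Ccnd1, Cdkn1b and Cdkn2d) fell, against 69.7% of all genes (39.7% up). From day 0 to day 3, 7 of 9 were called in WT (65.0% of genes, 33.3% up) and 9 of 9 in KO (62.3%). From day 1 to day 3, 7 were called in WT (68.8%, 42.9% up), 6 with zero DOX (51.8%, 25.5% up) and 9 with high DOX (49.1%). In all 3 of those series Cdkn1b, Cdkn2c and Cdkn2d rose and Ccnd2, Cdk4 and Cdk6 fell. KO differed from WT in 5 genes at day 0 (30.7% of genes, 12.8% higher), 5 at day 1 (48.6%, 33.4% higher and 15.2% lower) and 6 at day 3 (34.5%), of which 5 at day 3 were higher (Ccnd1, Ccnd2, Ccnd3, Cdkn1a and Cdkn2d) and Cdk6 was lower, against 18.8% of genes higher and 15.7% lower. The day 0 count ranged from 1 to 5 when single arrays were left out, with 1 without KO day 0 replicate 1, 2 without WT day 0 replicate 1 or 2, and 3 without WT day 0 replicate 3 or KO day 0 replicate 2. Of the interaction terms, the genotype's effect on the day 1 change was called in 4 genes (43.0% of genes, 11.2% lower in KO), its effect on the day 3 change in 6 (24.8%, 15.3% higher and 9.58% lower) and the change of the high DOX effect between the days in 3 (24.9%). The median log2 difference of the 9 genes was 0.48 in WT from day 0 to day 1 (-0.15 over all genes) and 0.33 for KO against WT at day 3 (0.00 over all genes).

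Differences between doses were called mainly at day 3. At day 1, low against zero DOX called 0 of the 9 genes and 0% of all genes in limma after adjustment, with labels as deposited. At an unadjusted p under 0.05 it called 0 of the 9 and 32 of the 12183 genes. Each of these groups held 1 array whose Irf4 set went against its label, at 10.77 with zero DOX and 7.69 with low DOX. The comparison therefore cannot show whether low DOX had an effect at day 1. The same zero DOX group serves the comparison with high DOX. High against zero DOX at day 1 called Cdk6 alone, against 2.12% of genes, and none of the 9 without any of the 3 arrays named above for that call. At day 3 low DOX changed 5 of 9 genes (34.7% of genes), with Ccnd2, Cdk4 and Cdk6 higher and Ccnd1 and Ccnd3 lower (17.2% and 17.5% of genes). The count was 3 without KO zero DOX day 3 replicate 2 or without KO low DOX day 3 replicate 1. High DOX likewise changed 5 (47.8%), with Ccnd2, Cdk6 and Cdkn1b higher and Ccnd1 and Ccnd3 lower (24.0% and 23.8% of genes). High against low DOX called 0 of the 9 (11.7% of genes) and 4 at an unadjusted p under 0.05, and 2 with the replicate block in the fit of the KO arrays, Ccnd1 and Cdkn1a. Without KO high DOX day 3 replicate 3 it also called 2, here Ccnd2 and Cdkn1a, and without KO low DOX day 3 replicate 1 it called Cdkn1a alone.

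**Figure D3:**
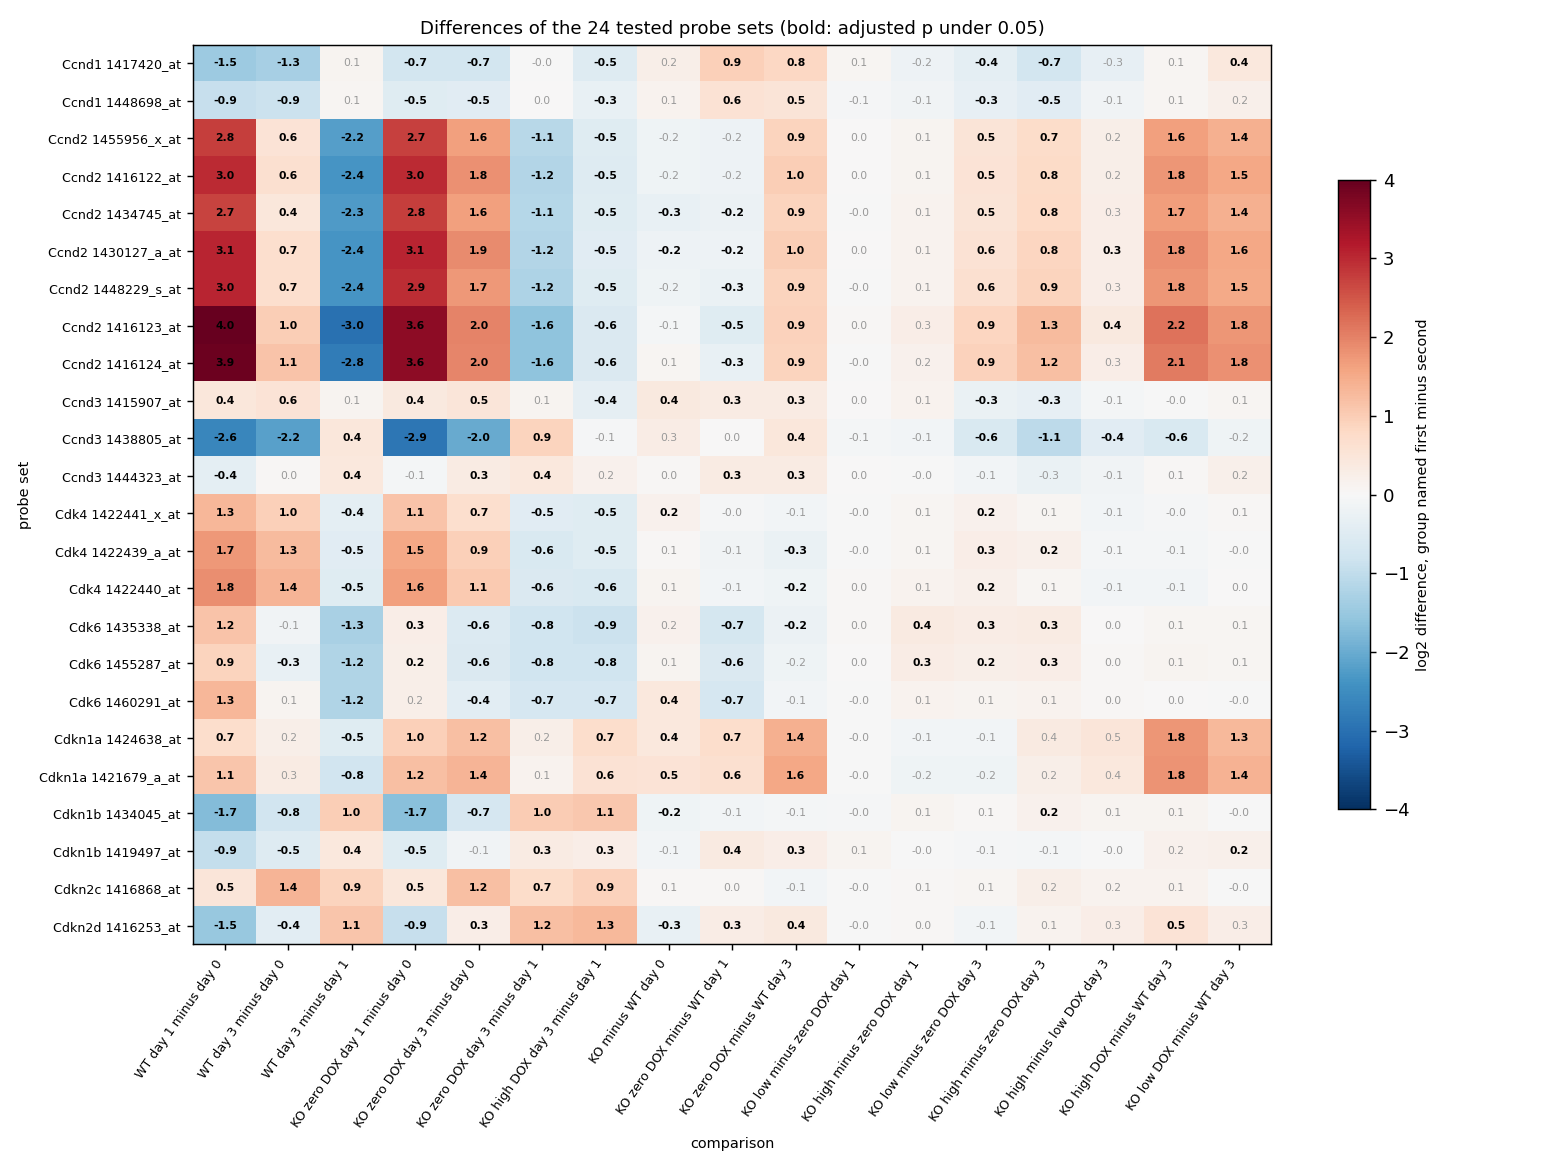
Log2 differences of the 24 tested probe sets (rows) in 17 comparisons (columns), each the group named first minus the second, with bold figures where the limma adjusted p was under 0.05. The 7 Ccnd2 rows run together, the Ccnd3 rows do not, and the column for low against zero DOX at day 1 holds no bold figure.

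Set against WT at day 3, some genes were called apart from it at every dose and others at some doses only. High DOX differed from WT in 3 of 9 genes (40.3% of genes), namely Ccnd2, Cdkn1a and Cdkn2d, all higher, as were 21.7% of genes. Low DOX also differed in 3 (33.0%), namely Ccnd1, Ccnd2 and Cdkn1a, all higher, as were 18.2% of genes. Ccnd1, Ccnd3 and Cdk6 differed from WT with zero DOX and were not called with high DOX, where their differences were 0.09 (95% interval -0.17 to 0.35), -0.01 (-0.17 to 0.14) and 0.08 (-0.08 to 0.24). For Ccnd3 this holds on 1415907_at, whereas on 1438805_at high DOX was lower than WT (-0.60, adjusted p = 0.000143). Their high DOX levels differed from those with zero DOX, as given above. Ccnd2 and Cdkn1a were farthest from WT with high DOX. All 3 comparisons share the WT arrays, so an error in those arrays would move every gene's 3 values together.

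**Figure D4:**
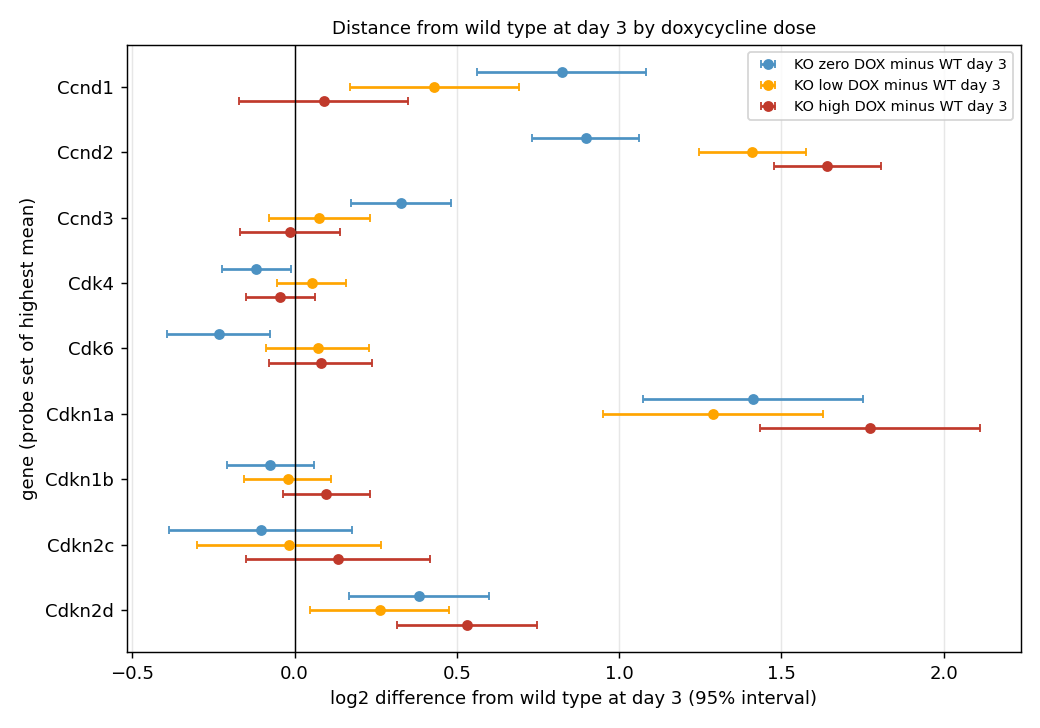
Log2 difference from WT at day 3 (horizontal axis, with 95% intervals from limma, 3 arrays per group) for each gene's brightest tested set (vertical axis), with zero, low and high DOX. Ccnd1 runs from 0.82 to 0.09 as the dose rises and Ccnd2 from 0.90 to 1.64, while Cdkn1b and Cdkn2c lie near 0 throughout.

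The rest of the pathway gives the setting of these changes. Of 19 tested genes of S phase entry, which E2F factors drive, 18 rose in WT by day 1 and 1 fell, against 33.8% of all genes up and 47.5% down, led by Cdc6, which loads the replication helicase (4.18, adjusted p = 1.3e-16), and Ccne2, the cyclin of Cdk2 (3.97, adjusted p = 1.8e-15). Their median was 2.00 in WT and 1.67 in KO. At day 0, 10 of the 19 were already higher in KO than in WT and 0 lower (12.8% of genes higher), with a median of 0.22, and at day 1, 2 were higher and 3 lower (33.4% and 15.2% of genes). The genotype's effect on the day 1 change, which takes in that day 0 difference, was called in 11 of the 19, all lower in KO (11.2% of genes), and at day 3 in 11 lower and 1 higher (9.58% and 15.3% of genes). At day 3, 15 of 19 rose with low DOX and 15 with high DOX and 0 fell (17.2% and 24.0% of genes higher), with medians of 0.35 and 0.39 against -0.03 and 0.00 over all genes. Orc1, of the origin recognition complex, rose by 0.82 with high DOX (adjusted p = 1.7e-06). Against WT at day 3, KO zero DOX had 5 of 19 lower and 1 higher (15.7% and 18.8% of genes), and high DOX had 9 higher and 0 lower (21.7% of genes higher).

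Other lists of the machinery moved to different degrees. Of 12 tested cyclins, kinases and phosphatases beyond the D complexes, 12 rose in WT by day 3 and 0 fell (33.3% of genes up). This list shares Ccne1 and Ccne2 with that of S phase entry, so their counts are not independent. At day 3 high DOX raised 5 and lowered 0 (24.0% and 23.8% of genes), with Cdc25b, a phosphatase that activates Cdk1, up by 1.46 (adjusted p = 1.1e-08) after being lower in KO zero DOX than in WT (-1.51, adjusted p = 2.3e-08). Of 13 E2F and pocket protein genes, 7 rose and 6 fell in WT by day 1 (33.8% and 47.5% of genes), with E2f7, a repressor among the E2Fs, up by 2.60 (adjusted p = 2.4e-17). Among 7 genes of p27 turnover, 4 rose and 1 fell in WT by day 1, beside the same shares of all genes. Skp2, the subunit that recognises p27 for degradation, rose by 2.41 (adjusted p = 2.5e-15) and Cks1b, its cofactor, by 2.36 (adjusted p = 9.4e-15), on the day that Cdkn1b transcript was lowest. High DOX raised Skp2 at day 3 by 0.52 (adjusted p = 0.00062).

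Quiescence and stress genes bracket the inhibitors. Of 11 tested FoxO targets and quiescence genes, 11 fell in WT by day 1 (47.5% of genes down) and 11 in KO (69.7% of genes called in either direction), with Irs2 (-5.66, adjusted p = 1e-25) and Klf4 (-5.61, adjusted p = 8.7e-21) falling most in WT, and from day 1 to day 3 9 rose again in WT and 9 in KO (42.9% and 25.5% of genes up). Of 14 tested p53 targets other than Cdkn1a, KO zero DOX had 4 higher and 5 lower than WT at day 3 (18.8% and 15.7% of genes). Pmaip1, a pro-death protein, was higher (0.76, adjusted p = 9e-09) and Trp53inp1 lower (-0.49, adjusted p = 0.0006). High against zero DOX had 4 higher and 4 lower (24.0% and 23.8% of genes), with Sesn2 at 0.96 (adjusted p = 3.5e-08). Of 9 genes of the Myc and PI3K inputs, 2 rose and 7 fell in WT by day 1 (33.8% and 47.5% of genes), and Myc itself was lower (-1.14, adjusted p = 2.3e-12). At day 3 Myc was lower in KO zero DOX than in WT (-0.36, adjusted p = 0.00081) and higher with high than zero DOX (0.29, adjusted p = 0.0032).

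Of the 4 other inhibitors on the list, Cdkn2b stood out between the genotypes at day 1. It encodes p15, the INK4 protein that TGF-beta induces. Its set 1449152_at read 6.61, 6.60 and 6.60 in WT at day 0, 7.49, 7.30 and 7.86 at day 1 and 6.91, 7.05 and 7.12 at day 3. KO cells read 6.75, 7.24 and 6.59 at day 0, then with zero DOX 9.95, 9.87 and 9.39 at day 1 and 8.53, 8.40 and 7.77 at day 3. At day 1 every KO array lay above every WT array, and replicate 3 was the lowest in each KO group. The difference was 2.18 at day 1 (SE 0.22, adjusted p = 1.1e-07) and 1.21 at day 3 (adjusted p = 0.00016), and the rise to day 1 was larger in KO by 1.92 (adjusted p = 9e-05). At day 3 low DOX arrays read 7.82, 7.70 and 7.36 and high DOX arrays 7.52, 7.66 and 7.26, lower than zero DOX by 0.61 (-0.61, adjusted p = 0.039) and 0.75 (-0.75, adjusted p = 0.0075). Cdkn2b is no member of the 9 and is named because, after its values were seen, its difference between KO zero DOX and WT at day 1 was larger than that of each of the 4 inhibitors among the 9 genes. Cdkn3, also on the list, moved more with time in WT, averaging 6.68 at day 0, 7.92 at day 1 and 10.16 at day 3. At day 3 it averaged 9.28 with zero DOX and 9.90 with high DOX.

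Markers of other cells moved with the genotype and the dose, to an extent that differed between the lists. Of 11 myeloid markers, 10 were higher in KO than in WT at day 0, 10 at day 1 and 8 at day 3 (12.8%, 33.4% and 18.8% of genes), with summed levels (log2 of the summed intensity plus 16) of 12.80 to 13.47 on the KO zero DOX arrays of day 3 and 11.57 to 11.68 on the WT arrays. With high DOX at day 3 the sum was 11.56 to 11.76, and 8 of 11 were lower than with zero DOX (23.8% of genes). Lyz2, lysozyme of macrophages, named after its values were seen, averaged 11.13 with zero DOX, 7.79 with high DOX and 7.68 in WT at day 3. Of 4 tested NK markers, 4 were higher in KO zero DOX than in WT at day 3 (18.8% of genes), with sums of 12.17 to 13.09 against 10.42 to 10.94. With high DOX 4 were lower than with zero DOX (23.8% of genes), at 9.96 to 10.72, and with low DOX 1 was lower (17.5% of genes). T cell markers were higher in KO zero DOX than in WT in 6 of 6 at day 1 and 4 of 6 at day 3 (33.4% and 18.8% of genes). Of 3 tested dendritic markers, 2 were higher in KO than in WT at day 0 and 2 at day 1 (12.8% and 33.4% of genes). At day 3, 1 was higher and 1 lower in KO zero DOX than in WT (18.8% and 15.7% of genes). Against zero DOX at day 3, 0 were called with low and 0 with high DOX (34.7% and 47.8% of genes called). Of 3 erythroid genes on the array, 0 were bright enough to be tested. B cell markers moved with the dose too. Of 5, 5 were lower with low and 5 with high than with zero DOX at day 3 (17.5% and 23.8% of genes), with mean sums of 15.39 and 15.13 against 15.73. These shifts, those of the dendritic list apart, run with the KO differences of Ccnd1, Ccnd3, Cdk6 and Cdkn2b at day 3 and with the doses. The myeloid markers set the genotypes apart at days 0 and 1 too. At KO day 0 the myeloid sums were 13.86, 14.21 and 13.09 on the arrays where Ccnd1 read 8.80, 8.94 and 8.40. The part of these shifts in the genotype and dose results of the 9 genes and Cdkn2b, on any day, was not tested.

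**Figure D5:**
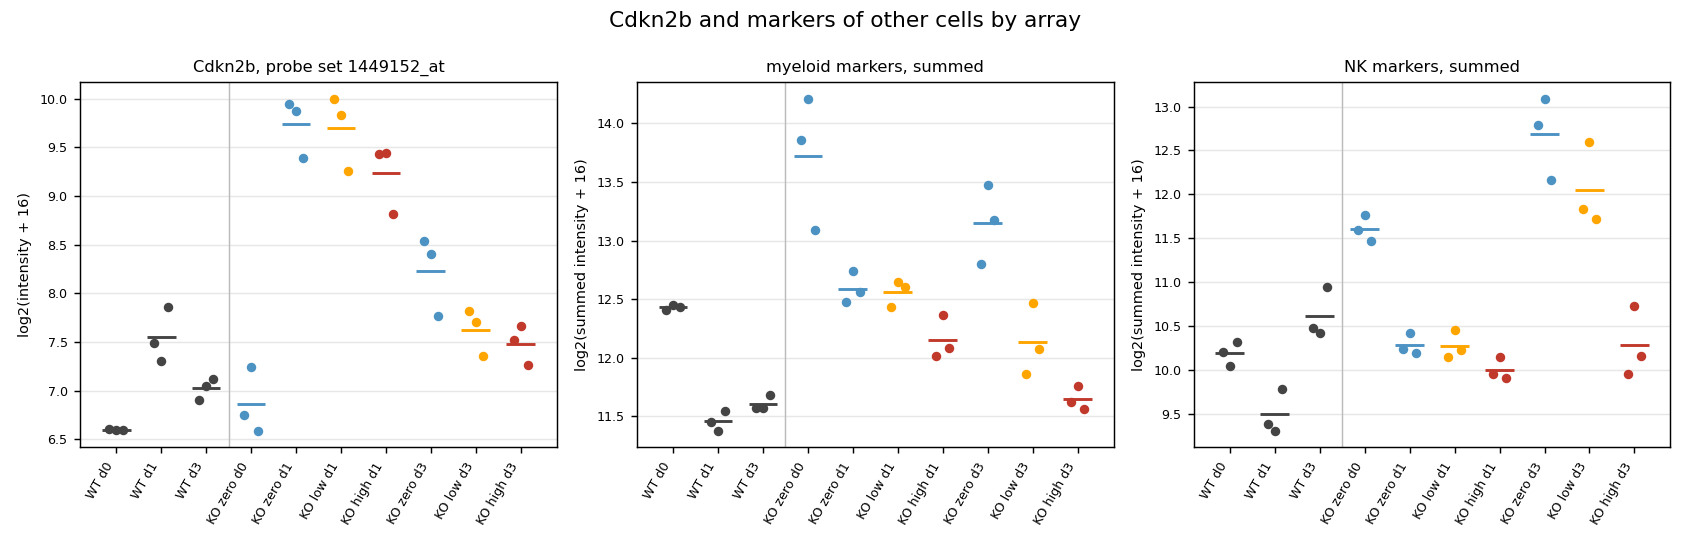
Cdkn2b (left, log2 of the intensity plus 16) and the summed myeloid and NK markers (middle and right, log2 of the summed intensity plus 16) on each of the 30 arrays in 10 groups. Points are arrays and bars are group means. Cdkn2b was highest in KO cells at day 1, whereas the myeloid sum was highest at KO day 0 (13.09 to 14.21) and the NK sum at KO day 3 with zero DOX (12.17 to 13.09).

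Plasma cell markers differed with the genotype from day 0 on, and with the dose at day 3 in the same cultures. How far they gauge differentiation was not tested. Of 5, 5 were lower in KO zero DOX than in WT at day 3 (15.7% of genes). Against zero DOX, 5 were higher with low and 5 with high DOX (17.2% and 24.0% of genes). With high DOX, 4 were higher than in WT (21.7% of genes). Their summed level at day 3 was 12.82 to 13.02 with zero DOX, 14.19 to 14.57 with low, 14.74 to 14.89 with high DOX and 14.57 to 14.63 in WT. In WT the sum was 13.70 to 14.21 in resting cells and 13.21 to 13.45 at day 1. In KO cells it was 12.03 to 12.44 at day 0 and, with zero DOX, 12.76 to 12.82 at day 1. Of the 5 markers, 3 were lower in KO than in WT at day 0 and 0 higher (30.7% of genes called in either direction). At day 1, 3 were lower and 0 higher (15.2% and 33.4% of genes). From day 0 to day 1 in WT, 4 of the 5 fell and 1 rose (47.5% and 33.8% of genes). The 3 proliferation markers, Mki67, Top2a and Birc5, did not differ past the threshold between KO zero DOX and WT at day 3 or between the doses at day 3. High against zero DOX was 0.70 for Mki67 (adjusted p = 0.053), 0.24 for Birc5 (adjusted p = 0.296) and 0.21 for Top2a (adjusted p = 0.397). The arrays of these doses did not overlap for any of the 3. How many of all genes separated likewise was not counted, so no result is read from this.

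For each gene, the genes whose 10 group means followed it most closely are named as a description of likeness, with no test, since all share the same arrays. Cdkn1b was followed by Btg2 (Pearson r = 0.999 over 10 group means), an antiproliferative gene, and Serp1 (0.993). Cdk4 was followed by Ahcy (0.997), an enzyme of methionine metabolism, and Pola1 (0.996), the catalytic subunit of DNA polymerase alpha. Ccnd2 was followed by Abhd13 (0.993) and Ube2k (0.990), Cdkn2d by Erp29 (0.991) and Ssh3 (0.986), and Cdkn2c by Atpif1 (0.989) and Slc48a1 (0.985). Cdk6 was followed by Spring1 and Dhx15 (0.983 each) and Ccnd1 by Arhgap39 (0.980) and Ipcef1 (0.966). The loosest were those of Cdkn1a, Rac1 (0.960) and Ddx24 (0.959), and of Ccnd3, Slfn8 (0.949) and Lcmt1 (0.947). In the order of group means, Ccnd2 and Cdkn1a differ in shape. Ccnd2 peaked in WT at day 1 and its next group, KO high DOX at day 1, lay below without overlap, whereas the 6 highest groups of Cdkn1a were the 6 stimulated KO groups, of which each neighbour overlapped the next.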

How the data were processed

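Expression was measured on 30 Affymetrix 430 2.0 arrays, in 10 groups of 3, from 250 ng of RNA each. The authors deposited linear intensity values, normalized with the D-Chip PM-only model, per the series' design text, and MAS5 is also named, with no role, in the submitters' processing notes. Intensities ran from 1 to 30619.06, with array medians of 171 to 199.67. Their number of arrays limits the precision.

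From these values, log2(intensity + 16) was fitted with limma 3.58.1 in R 4.3.3, with 1 mean per group over all 30 arrays (20 residual degrees of freedom) and Benjamini-Hochberg adjustment over all 26095 probe sets with at least 3 arrays above the table's median. A set was called at an adjusted p under 0.05. A difference on this scale understates the change of dim sets. An exact permutation test of 3 arrays against 3 cannot go below 0.1, so none is given. A gene was counted by its tested set of highest mean. Interactions are differences between such differences, and intervals are 95% intervals from limma.

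Of the 45037 sets that are not controls, 34945 carried 1 symbol, 932 several and 9160 none in the platform annotation, and 34741 of the symbols were matched to RefSeq (GRCm38.p6), which also gave the promoter windows. The 9 genes, the lists and the tests were chosen with earlier results of these data known. From each pathway list, up to 4 called members of largest change could be named in each of 4 comparisons, and for likeness the 2 genes of highest correlation. Each replicate is an individual mouse and, per the design text, 2 of the 3 in each group were run in parallel and 1 at another time, with no statement of which. The sources used here do not say whether the KO cultures share mice.

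The replicate numbers were checked for pairing by correlating deviations from group means. A pair of groups was counted when all 3 of its same-numbered correlations passed a fixed positive cutoff. All 21 pairs of KO groups did (lowest correlation 0.303), against 0 of 3 pairs of WT groups and 0 of 21 of KO with WT groups. In the WT pairs replicates 2 and 3 did deviate together, at 0.17 to 0.42, and replicate 1 did not, at -0.07 to 0.07. A block was fitted to the KO arrays alone as an added alternative, and no block was fitted to the WT arrays alone. Other alternatives were pseudocounts of 1 and 64, the filter, arrays centred on their medians, quantile normalization, array weights, a block or a sex term over all arrays, the compared groups alone, 1 test per gene, and leaving out arrays.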

Additional observations from a re-analysis of the deposited data

Results flagged for a closer look

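The results gathered here are those in which the same contrast gave different effects in KO and WT cells, or high DOX different effects on the 2 days, by the interaction term of the limma fit. Each value is a difference between log2 differences. The genotype's effect on the change from day 0 to day 1 was 0.71 on 1417420_at and 0.44 on 1448698_at of Ccnd1, and 0.59 on 1416253_at of Cdkn2d. It was -0.90 on 1435338_at, -0.69 on 1455287_at and -1.10 on 1460291_at of Cdk6, and -0.20 on 1422441_x_at of Cdk4. It was -0.40 on 1416123_at, 1 of the 7 sets of Ccnd2, and 0.47 on 1419497_at, the dimmer of the 2 sets of Cdkn1b.

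Its effect on the change from day 0 to day 3 was positive on all 7 Ccnd2 sets, with 1.07 on 1455956_x_at, 1.18 on 1416122_at, 1.18 on 1434745_at, 1.20 on 1430127_a_at, 1.06 on 1448229_s_at, 0.98 on 1416123_at and 0.82 on 1416124_at. Ccnd1 gave 0.58 and 0.40 on 1417420_at and 1448698_at, Cdkn1a 0.97 and 1.01 on 1424638_at and 1421679_a_at, Cdkn2d 0.69 on 1416253_at and Cdkn1b 0.38 on 1419497_at. Cdk4 gave -0.28 on 1422441_x_at, -0.33 on 1422439_a_at and -0.30 on 1422440_at, and Cdk6 gave -0.41 on 1435338_at, -0.28 on 1455287_at and -0.54 on 1460291_at.

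The effect of high DOX changed between day 1 and day 3 by 0.63 on 1455956_x_at, 0.65 on 1416122_at, 0.65 on 1434745_at, 0.71 on 1430127_a_at, 0.74 on 1448229_s_at, 1.00 on 1416123_at and 1.03 on 1416124_at of Ccnd2. For Ccnd3 it changed by -0.48 on 1415907_at and -0.94 on 1438805_at, and for Ccnd1 by -0.53 on 1417420_at.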

How the results depend on the processing

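Over the brightest sets, 0 recomputed differences changed sign where the main or the recomputed value was called. Changes of sign with neither value called were not counted. With arrays left out, 1179 of 1242 kept their side of the threshold, 55 lost the call and 8 gained it. Under the other settings 2066 of 2133 did, 32 lost and 35 gained it. For KO against WT at day 0, the 5 genes called became 3 without a filter, 3 with arrays centred, 3 with array weights and 1 with the compared groups alone, and 1 to 5 with arrays left out. For high against low DOX at day 3, the 0 called became 2 with quantile normalization, 5 with array weights, 2 with a replicate block over all arrays, 2 with a sex term, 1 with the compared groups alone and 2 with the replicate block in the KO arrays alone, and 0 to 2 with arrays left out. High against zero DOX at day 1 went from 1 to 0 with the compared groups alone and 0 to 1 with arrays left out. Low against zero DOX at day 3 went from 5 to 3 with the compared groups alone, and 3 to 5 with arrays left out. Low DOX against WT at day 3 went from 3 to 5 with array weights. The cause was not tested, beyond the fewer arrays of the compared groups alone. In the KO arrays the replicate block changed the calls of 3 sets: Ccnd1 1417420_at (-0.34, adjusted p = 0.0197) and Cdkn1a 1424638_at (0.48, adjusted p = 0.0445) for high against low DOX at day 3, and Cdk6 1460291_at from day 0 to day 1 (0.24, adjusted p = 0.00727).

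Centring the arrays on their medians moved the log2 differences of all genes tested, each by its brightest tested set. The median move was 0.16 in WT from day 0 to day 1 and -0.13 in WT from day 1 to day 3. It was -0.14 for KO against WT at day 1, where the share of called genes that were higher went from 68.7% to 38.1%. There Ccnd2 (-0.33, adjusted p = 0.00413), Cdk4 (-0.17, adjusted p = 0.00662) and Cdkn1b (-0.25, adjusted p = 0.0113) became lower in KO. Dim sets, such as those of Ccnd1 after stimulation, lie near background, which limits their differences.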
